A study of Saccharomyces cerevisiae with 15 samples.

Results

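The comparison described here is that of Saccharomyces cerevisiae cells treated with 5-Ph-IAA for 1.5 h with untreated cells of the same strain, over all genes. Its members are 6 of the 15 libraries, 3 in each group, taken by treatment and time in the labels. Of the 7127 gene rows in the table, 6069 had enough counts to be tested. Both groups are strain W303 with the genotype ZPR1-AID, in which Zpr1 carries an auxin-inducible degron, and both were grown to mid-log phase before polyadenylated RNA was sequenced. The untreated cells were taken at 0 h. The other cells had 5-Ph-IAA, an auxin derivative that directs a degron-tagged protein to the proteasome, for 1.5 h. The 9 further libraries are 5-Ph-IAA for 0.5 h, 5-Ph-IAA for 3 h and the solvent DMSO for 3 h, with 3 libraries each. The degron is thus carried by every group, no cells without it were analysed here, and DMSO was sampled at 3 h only, so compound, solvent, time in culture and loss of Zpr1 cannot be told apart in the difference from untreated cells. The labels do not say whether the 3 libraries of a group came from separate cultures, and the spread behind every p-value is that of these libraries, which may be technical.

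The 3 untreated libraries held 7892004, 9010837 and 9233290 counts and the 3 libraries at 1.5 h held 8347962, 6465430 and 7419058. Spearman correlations were 0.987 to 0.992 among the untreated libraries and 0.991 to 0.994 among those at 1.5 h. Mitochondrially encoded genes held 0.0432% to 0.0854% of the untreated counts and 0.0158% to 0.042% of those at 1.5 h, so the groups did not overlap in this share, and its part in the results was not tested. The 7 genes specific to MATa cells summed to 2275 to 2575 CPM (counts per 1000000 of the TMM-scaled library) in untreated cells, while 4 genes specific to MATalpha cells, 3 of them tested, summed to 34.8 to 43.6 CPM, which is the pattern of a MATa culture. In such bulk RNA fewer cells of a type and less RNA per cell cannot be told apart.

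Zpr1 is a zinc-finger chaperone that helps newly made eEF1A, the elongation factor that brings aminoacyl-tRNA to the ribosome, to reach its folded state. Hsf1 is the transcription factor that keeps the genes of cytosolic and nuclear chaperones on, is held back by Hsp70 when chaperones are in excess, and is released when unfolded new proteins occupy them. Rpn4 drives proteasome genes, Gcn4 drives amino acid synthesis when charged tRNA is short, and Aft1 drives iron uptake. Genes for ribosome assembly share a pair of promoter elements, PAC and RRPE, and are lowered together in many stresses that slow growth.

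Promoter windows of genes that head 5 of the groups below are printed first, so that the elements named later can be seen. Each window runs from 250 bases before to 50 bases after the annotated gene start, which is the start codon in the R64 annotation, and is written 5′ to 3′ on the strand of the gene. For each group of genes with a known element, the window is that of the member with the largest change that held an exact match. Capitals mark the heat shock element core TTCNNGAA in HSP82, which encodes an Hsp90 chaperone, at chrXVI:98576-98875 on the minus strand. In PRE3, a 20S proteasome subunit gene, at chrX:434913-435212 on the plus strand, they mark the Rpn4 element PACE, GGTGGCAAA. The capitals in HIS5, a histidine synthesis gene, at chrIX:142678-142977 on the plus strand, mark the Gcn4 element TGACTC. Those in ALB1, a 60S assembly factor gene, at chrX:189466-189765 on the plus strand, mark the PAC core GATGAG and the RRPE core AAAATTTT. In SIT1, a siderophore transporter gene, at chrV:27407-27706 on the plus strand, they mark the Aft1 core TGCACCC. Matches on the opposite strand stand as their reverse complement.
HSP82: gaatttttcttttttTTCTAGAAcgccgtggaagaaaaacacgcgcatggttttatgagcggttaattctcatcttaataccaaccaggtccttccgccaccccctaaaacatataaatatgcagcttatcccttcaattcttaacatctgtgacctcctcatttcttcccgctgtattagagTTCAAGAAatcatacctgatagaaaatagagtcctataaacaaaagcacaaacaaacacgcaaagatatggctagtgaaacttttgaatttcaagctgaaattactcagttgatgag
PRE3: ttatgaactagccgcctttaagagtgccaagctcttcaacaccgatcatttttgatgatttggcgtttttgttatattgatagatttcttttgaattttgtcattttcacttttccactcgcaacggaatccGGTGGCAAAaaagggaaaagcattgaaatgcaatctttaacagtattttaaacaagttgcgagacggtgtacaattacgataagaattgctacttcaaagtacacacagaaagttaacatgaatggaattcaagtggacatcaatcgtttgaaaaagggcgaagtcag
HIS5: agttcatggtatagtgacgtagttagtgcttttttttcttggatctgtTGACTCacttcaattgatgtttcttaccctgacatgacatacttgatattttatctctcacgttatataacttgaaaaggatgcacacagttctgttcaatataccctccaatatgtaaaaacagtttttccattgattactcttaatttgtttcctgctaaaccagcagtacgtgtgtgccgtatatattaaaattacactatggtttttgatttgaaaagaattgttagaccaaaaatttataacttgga
ALB1: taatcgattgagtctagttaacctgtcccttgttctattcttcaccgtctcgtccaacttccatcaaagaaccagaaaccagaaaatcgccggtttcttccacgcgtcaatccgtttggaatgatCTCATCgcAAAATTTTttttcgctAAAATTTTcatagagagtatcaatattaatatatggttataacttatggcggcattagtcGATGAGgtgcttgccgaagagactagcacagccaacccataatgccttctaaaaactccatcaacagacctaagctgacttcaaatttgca
SIT1: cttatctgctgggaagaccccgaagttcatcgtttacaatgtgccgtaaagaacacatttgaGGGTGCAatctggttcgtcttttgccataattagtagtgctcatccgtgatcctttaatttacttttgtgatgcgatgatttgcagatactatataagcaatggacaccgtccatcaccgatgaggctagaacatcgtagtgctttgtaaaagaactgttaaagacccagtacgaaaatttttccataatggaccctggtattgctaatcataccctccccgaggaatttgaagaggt

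After 1.5 h of 5-Ph-IAA the chaperone genes controlled by Hsf1 were among the largest rises, led by HSP82 with an 11.7-fold rise, and the iron uptake genes FET3 and SIT1 were among the largest falls, FET3 having 0.151 times the untreated level. Ribosome assembly factor genes were lower almost as a whole by a smaller amount, and phospholipid synthesis genes were higher. In all, 1068 of the 6069 tested genes (17.6%) had an adjusted p under 0.05 in edgeR's quasi-likelihood test, 477 of them higher (7.86%) and 591 lower (9.74%). The genes that rose had a median log2 change of 0.62, from 0.28 to 3.55, and in 473 of them the 3 libraries at 1.5 h lay above all 3 untreated ones. Among the genes that fell the median was -0.59, from -2.73 to -0.27, and 583 did not overlap. Of all 6069 tested genes, called or not, 1151 lay higher without overlap and 1346 lower. The counts among called genes describe the calls and are no further test of them. Large changes were fewer and lay more often upwards, with 87 rises and 53 falls of at least 1 on the log2 scale. The median over all tested genes was -0.02. With scaling on total counts alone 58.5% of the calls were higher, against 44.7% here. Leaving out untreated library 3, library 1 at 1.5 h or library 2 at 1.5 h lowered the 1068 calls to 582, 645 and 577.

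**Figure D1:**
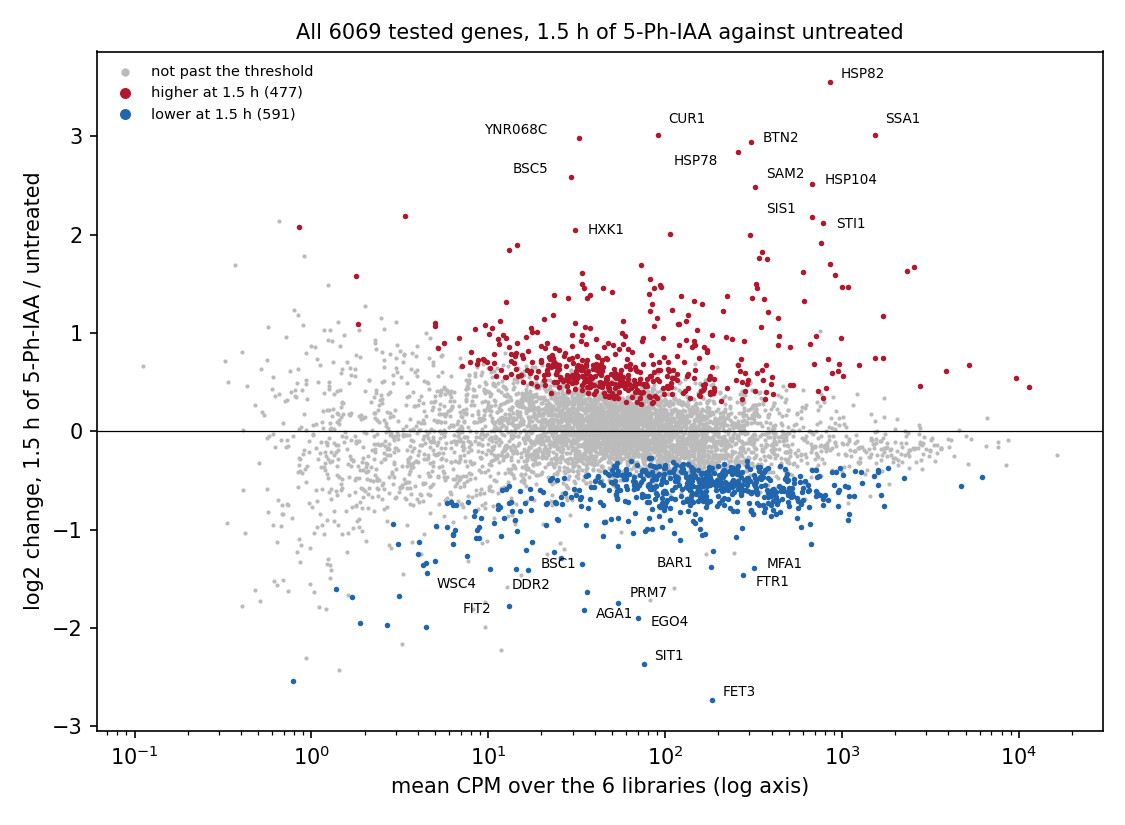
Log2 change at 1.5 h of 5-Ph-IAA against untreated cells (vertical) by mean CPM over the 6 libraries (horizontal, log axis), 1 point per tested gene, with the 477 higher genes in red, the 591 lower genes in blue and the 12 largest rises and falls with a mean of at least 10 CPM and no overlap named. The largest rise is that of HSP82 at 3.55 and the largest fall that of FET3 at -2.73, and 87 rises and 53 falls reach at least 1.

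The gene of the tagged protein had mRNA counts in every library. Coordinates are those of the R64 annotation, and the genes named are protein coding unless said otherwise. ZPR1 (YGR211W, chromosome VII, 915241 to 916701) had 121, 186 and 152 CPM in the 3 untreated libraries and 265, 224 and 231 CPM at 1.5 h. All 3 treated libraries lay above the untreated ones, but the difference of 0.65 log2 (SE 0.3) did not pass (adjusted p = 0.15). It passed where only the compared groups entered the fit (adjusted p = 0.00312). At 3 h of DMSO the gene had 80.1, 52.7 and 151 CPM. In the direct test with DMSO, in which times differ, ZPR1 was higher at 1.5 h (1.35 log2, adjusted p = 0.0098). The difference of DMSO from untreated cells was -0.70 log2 and did not pass (adjusted p = 0.0789). Since the degron removes protein and not mRNA, these values are no check of the depletion.

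The client of Zpr1 is encoded by a pair of near-identical genes, whose counts may have been exchanged in part. TEF1 (YPR080W, chromosome XVI, 700594 to 701970) had 5256, 5438 and 6062 CPM in untreated cells and 3819, 3824 and 3785 CPM at 1.5 h, and fell by 0.55 on the log2 scale (SE 0.11, adjusted p = 0.00319). For TEF2 (YBR118W, chromosome II, 477671 to 479047) the values were 4563, 5101 and 5715 CPM and 5408, 4583 and 4921 CPM. The TEF1 groups lay apart, while those of TEF2 overlapped and its difference of -0.04 log2 did not pass (adjusted p = 0.903) and turned to 0.0299 with total counts alone. Of 9 tested genes for Zpr1 and other factors that fold or methylate elongation factors, 3 fell and 0 rose, against 9.74% and 7.86% of all genes. They were HGH1, a chaperone of the other elongation factor eEF2 (-0.50 log2, adjusted p = 0.00759), and the lysine methyltransferase genes EFM1 (-0.40) and EFM4 (-0.49). Leaving out any 1 of the 6 libraries left 1 of the 3 calls, as EFM1 then had adjusted p from 0.0556 to 0.14 and EFM4 from 0.0694 to 0.166, and total counts alone did so too.

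Every one of the 24 genes of the Hsf1 core list changed. Of these, 23 rose and 1 fell, where 7.86% and 9.74% of all tested genes did, and the list's median log2 change was 1.76 beside -0.02 for all genes. Together these 24 genes took 0.928%, 0.968% and 1.17% of scaled counts in the untreated libraries and 2.98%, 3.03% and 3.06% at 1.5 h, so the 3 libraries at 1.5 h lay close together and far above. The list also holds MBF1, a coactivator of Gcn4, with 274, 321 and 367 CPM untreated and 1217, 1151 and 1260 CPM at 1.5 h (1.91 log2, adjusted p = 1.4e-07). The count of 23 was 22 or 23 with any library left out.

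Hsp90 and its partners held the largest single rise. HSP82 (YPL240C, chromosome XVI, 96496 to 98625), the stress-inducible Hsp90, had 118, 134 and 152 CPM in untreated cells and 1482, 1736 and 1503 CPM at 1.5 h, a rise of 3.55 log2 (SE 0.15, adjusted p = 2.38e-10). HSC82 (YMR186W), the constitutive Hsp90, went from 955, 1097 and 1595 CPM to 3792, 4001 and 3793 CPM (1.67 log2, adjusted p = 2.11e-06). In both genes the lowest treated library lay far above the highest untreated one, and after 1.5 h HSP82 still had fewer CPM than HSC82 of like length. STI1 (YOR027W), which hands clients from Hsp70 to Hsp90, had 251, 295 and 339 CPM and then 1345, 1257 and 1227 CPM, a 4.33-fold rise. CPR6, a prolyl isomerase that binds Hsp90, rose by 1.76 log2 and AHA1, which speeds the Hsp90 ATPase, by 1.75. Of the 14 genes of this list 7 rose and 2 fell, beside 7.86% and 9.74% of all genes. The falls were PPT1, the Hsp90 phosphatase (-0.50, adjusted p = 0.0065), and CNS1, a co-chaperone that also serves eEF2 folding (-0.43, adjusted p = 0.0297). The call of CNS1 ended with total counts alone (adjusted p = 0.0655) and with any 1 of the 6 libraries left out (adjusted p from 0.0546 to 0.122).

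Genes of the soluble Hsp70 rose, and those of the Hsp70 bound to ribosomes did not pass. SSA1 (YAL005C, chromosome I, 139503 to 141431), a cytosolic Hsp70, had 314, 313 and 388 CPM untreated and 2629, 2800 and 2759 CPM at 1.5 h (3.01 log2, SE 0.12, adjusted p = 1.13e-10). SSA2, its near-identical copy, had 821, 971 and 1620 CPM and 3588, 3499 and 3501 CPM (1.63 log2, adjusted p = 0.000108), and reads of the pair could be mixed. Both members of the pair were higher in each treated library. FES1, a nucleotide exchange factor that frees Hsp70 of misfolded clients, rose by 1.45 log2, and SSE2, an Hsp110 exchange factor, by 1.46. In contrast, the ribosome-bound Hsp70 SSB2 had 1651, 1853 and 2221 CPM and 1523, 1350 and 1465 CPM, a difference of -0.40 that did not pass (adjusted p = 0.0826), and that of its partner SSZ1 was -0.40 (adjusted p = 0.444). Both passed with only the compared groups (adjusted p = 0.0332 and 0.0458). Of the 11 tested genes of the list 6 rose and 0 fell, beside 7.86% and 9.74% of all genes. Among 12 J-domain protein genes, whose products set Hsp70 to work, 4 rose and 1 fell, with a median of 0.06. The rises were SIS1 (209.6, 253 and 275 CPM to 1100, 1107 and 1127 CPM, 2.18 log2, adjusted p = 8.89e-06), which with Hsp70 holds Hsf1 back, APJ1 (1.69), YDJ1 (1.17) and XDJ1 (0.46), and the fall was JJJ3 (-0.51), which takes part in making diphthamide on eEF2. The call of JJJ3 ended with any 1 of the 6 libraries left out (adjusted p from 0.0901 to 0.178), and that of XDJ1 without library 1 at 1.5 h (adjusted p = 0.0541).

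Of 8 genes for sorting and dissolving aggregates 4 rose and 1 fell, beside 7.86% and 9.74% of all genes. CUR1 (YPR158W) and BTN2 (YGR142W) encode related proteins that gather misfolded proteins at set sites. CUR1 had 16.7, 20.8 and 22.4 CPM untreated and 153, 161 and 169.6 CPM at 1.5 h (3.01 log2, adjusted p = 1.13e-10). BTN2 had 59.8, 74.8 and 76.1 CPM and 544, 540.1 and 529.9 CPM (2.94 log2, adjusted p = 7.09e-07). Within the treated group the libraries of both genes differed by little beside the distance to the untreated group. HSP104 (YLL026W), the disaggregase, had 232, 238 and 136 CPM, with untreated library 3 the lowest, and 1066, 1198 and 1206 CPM at 1.5 h (2.51 log2, adjusted p = 1.98e-07). HSP42, a small heat shock protein that binds aggregates, rose by 2.01 log2 (adjusted p = 0.000413). HSP26, the other small heat shock protein, had 64.2, 79.2 and 21.6 CPM untreated and 16.8, 22.4 and 13.9 CPM at 1.5 h, a change of -1.64 log2 (adjusted p = 0.0072), although untreated library 3 lay within the range of the treated libraries. HSP26 was the 1 of the 24 Hsf1 core genes that fell.

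Mitochondrial chaperones rose as well, while the cytosolic chaperonin did not. HSP78 (YDR258C), the mitochondrial disaggregase, had 73.8, 69.2 and 47.3 CPM untreated and 420.1, 499 and 440.5 CPM at 1.5 h (2.84 log2, SE 0.15, adjusted p = 5.28e-09). MDJ1, a mitochondrial J-domain protein, rose by 1.99 log2, SSC1, the main Hsp70 of the matrix, by 1.47, and HSP10, the lid of the matrix chaperonin, by 1.32. Of 10 such genes 6 rose and 0 fell, beside 7.86% and 9.74% of all genes. MGE1, the exchange factor of matrix Hsp70, had a difference of -0.03 that did not pass (adjusted p = 0.933) and changed sign under 4 alternatives. Of 15 genes for the CCT chaperonin and prefoldin, which fold actin and tubulin, 0 rose and 1 fell, beside the same shares of all genes. The fall was that of PAC10 (-0.56, adjusted p = 0.0136), and the list's median was -0.18. The call of PAC10 ended without untreated library 3 or library 2 or 3 at 1.5 h (adjusted p from 0.0567 to 0.0703). The HSF1 gene itself had 50.5, 43.5 and 49.5 CPM and 39, 46.9 and 49 CPM, so the groups overlapped, and its difference of -0.09 log2 did not pass (adjusted p = 0.664) and was 0.0275 without library 1 at 1.5 h.

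**Figure D2:**
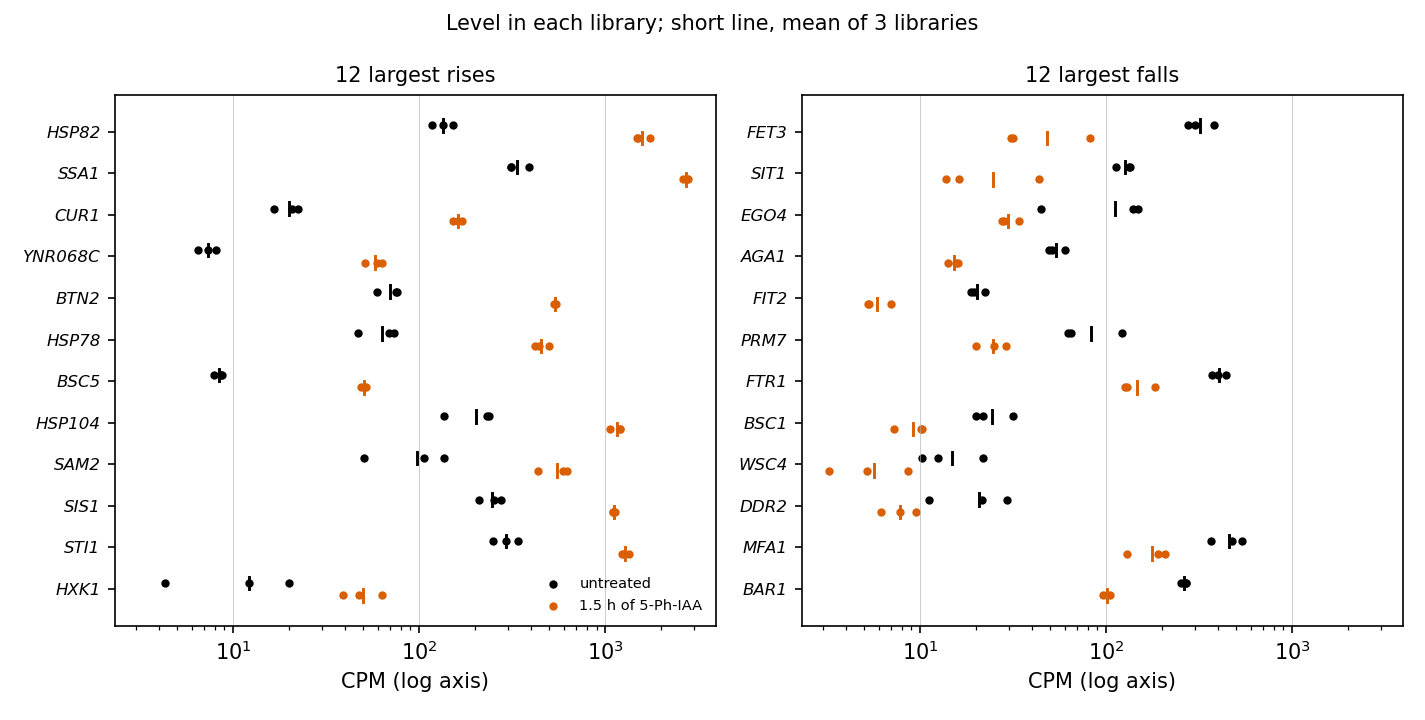
CPM on a log axis in each of the 3 untreated libraries (black) and the 3 libraries at 1.5 h of 5-Ph-IAA (orange) for the 12 largest rises and the 12 largest falls, with a short line at the mean of 3. HSP82 sits at 118 to 152 untreated and 1482 to 1736 at 1.5 h, and FET3 and SIT1 show library 3 at 1.5 h above the others of its group.

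Few proteasome genes passed. Of 33 genes for subunits of the core and cap, 4 rose and 0 fell, and the median was 0.27. The 4 were PRE3 (239, 239 and 253 CPM untreated and 343, 319.8 and 354 CPM at 1.5 h, 0.48 log2, adjusted p = 0.00994), PRE1 (0.44), RPT1 (0.41) and RPN6 (0.32). The calls of PRE1 (adjusted p from 0.0563 to 0.13) and RPN6 (0.0747 to 0.11) ended with any 1 of the 6 libraries left out, and that of RPT1 (0.0586 to 0.0961) without any but untreated library 1. Of the 33 genes 0 had a change below 0, and 27 lay higher without overlap, beside 1151 of all 6069 tested genes. In edgeR 14 of the 33 had an unadjusted p under 0.05, beside 1851 of all tested genes. Among all genes 7.86% rose, beside these 4 of 33, and 9.74% fell. RPN4, which encodes their activator, had 110, 104 and 139.7 CPM and 200, 208 and 232 CPM (0.85 log2, adjusted p = 0.000551). It was the 1 rise among 21 stress transcription factor genes, of which 3 fell, CIN5 (-1.17, adjusted p = 0.00218), SKN7 (-0.52) and AFT1 (-0.67). Without untreated library 3 or library 1 at 1.5 h SKN7 did not pass (adjusted p = 0.069 and 0.0645), nor did AFT1 without those, untreated library 1 or library 2 at 1.5 h (0.0501 to 0.152). Of 17 ubiquitin and misfolded-protein ligase genes 5 rose and 1 fell, with UBC4, a conjugating enzyme, at 0.86 (adjusted p = 0.00224) and SAN1, a nuclear ligase, at -0.67 (adjusted p = 0.00594, and 0.0544 without untreated library 3). Of 13 genes of the Cdc48 complex and ribosome quality control 4 rose and 1 fell, among them UFD1 (0.83, adjusted p = 0.0101) and NPL4 (0.58, adjusted p = 0.00287), which encode the pair of Cdc48 adaptors. With any library but untreated library 2 left out 3 of the 5 ubiquitin calls were made, and the 4 Cdc48 and quality control calls were 2 without untreated library 2 or 3 or library 2 at 1.5 h.

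The 12 largest rises also held 4 genes outside the chaperone lists. YNR068C had 8.15, 6.49 and 7.32 CPM untreated and 51.1, 62.9 and 59.2 CPM at 1.5 h (2.98 log2, SE 0.18, adjusted p = 2.31e-08). Its neighbour BSC5 (YNR069C) on chromosome XIV had 7.9, 8.73 and 8.59 CPM and 49, 51.7 and 50.6 CPM (2.58 log2, adjusted p = 1.07e-06). Both were low in every untreated library, and no treated library came near those values. SAM2 (YDR502C), an S-adenosylmethionine synthetase, had 107, 137 and 50.6 CPM and 622, 591 and 436 CPM (2.49 log2, adjusted p = 9.7e-05). HXK1 (YFR053C), a hexokinase that is repressed by glucose, had 12.2, 19.9 and 4.3 CPM and 47.6, 63.5 and 39.2 CPM (2.04 log2, adjusted p = 0.00227). In SAM2 and HXK1 untreated library 3 was the lowest, below the other untreated libraries by a wide margin. HXK1 was also higher at 3 h of DMSO than in untreated cells (1.85 log2, adjusted p = 0.00154). Its difference between 1.5 h of 5-Ph-IAA and DMSO was 0.20 and did not pass (adjusted p = 0.756).

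Ribosome assembly was the largest group of falling genes. Of 120 genes for assembly factors of either subunit, 100 fell and 0 rose, against 9.74% and 7.86% of all genes, and the median was -0.60. For the 40S list this was 46 of 57 (median -0.56) and for the 60S list 54 of 63 (median -0.64). ALB1 (YJL122W, chromosome X, 189716 to 190243), a 60S export and assembly factor, had 342, 318 and 361 CPM untreated and 166, 151 and 167 CPM at 1.5 h (-1.08 log2, SE 0.11, adjusted p = 1.13e-05). BUD20, a shuttling 60S factor, had 350.1, 379 and 354 CPM and 195, 179 and 172 CPM (-0.99 log2, adjusted p = 0.000253), and PNO1, a 40S factor, 162, 203 and 202 CPM and 104, 106 and 105 CPM (-0.84, adjusted p = 0.000327). In these genes the treated libraries lay below all untreated ones with a wide gap. RSA4 (-0.93), DBP10 (-0.78), HCA4 (-0.84) and SAS10 (-0.75) fell too, while UTP22 (-0.31, adjusted p = 0.0555) and NSA2 (-0.42, adjusted p = 0.0589) did not pass. The 46 falls of the 40S list became 30 without untreated library 3, 29 without library 1 at 1.5 h and 26 without library 2 at 1.5 h.

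The polymerases that make ribosomal and transfer RNA fell by the same order. Of 8 genes for RNA polymerase I subunits and RRN3, 6 fell, and of 10 for subunits specific to RNA polymerase III, 8 fell, with medians of -0.65 and -0.53 and 0 rises. Among all tested genes 9.74% fell and 7.86% rose. RRN3, the initiation factor of polymerase I, had 161, 149 and 184 CPM and 95.7, 99.3 and 111 CPM (-0.69 log2, adjusted p = 0.000368). RPC53 of polymerase III had 179.5, 194 and 194 CPM and 110.4, 84.2 and 106 CPM (-0.91 log2, adjusted p = 0.000171). The 8 calls for polymerase III were 5 without library 2 at 1.5 h. Of 14 purine genes 4 fell and 0 rose, all on the guanine branch or in salvage, with IMD4, an inosine monophosphate dehydrogenase, at -0.75 (adjusted p = 0.000227) and GUA1, which makes guanosine monophosphate, at -0.62 (adjusted p = 0.0296, and 0.0537 to 0.109 without 1 library). This count was 2 without untreated library 2 or 3 or without library 1 or 2 at 1.5 h.

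Ribosomal protein genes and translation factors changed less. Of 137 cytosolic ribosomal protein genes 5 fell and 1 rose, both under the shares of 9.74% and 7.86% among all genes, and the median was -0.17. The falls included RPP1A of the ribosomal stalk (-0.48, adjusted p = 0.0174) and RPL1A (-0.42, adjusted p = 0.0404), and all 5 were large-subunit genes. Among the 81 large-subunit genes alone, the falls were 8 in DESeq2, 9 with only the compared groups and 1 with total counts alone. They were 0 to 2 without 1 of the 6 libraries. Falls of small-subunit genes were not counted under these alternatives. Of 10 elongation factor genes 5 fell and 0 rose. Beside TEF1 they were TEF4 (-0.42, adjusted p = 0.0191), a guanine exchange factor subunit of eEF1A, YEF3 (-0.46, adjusted p = 0.0344), which encodes the fungal factor eEF3, and EFT1 (-0.57, adjusted p = 0.0377) and EFT2 (-0.39, adjusted p = 0.04), a near-identical pair for eEF2. Of 21 initiation and termination factor genes 8 fell and 0 rose, with SUI2, the alpha subunit of eIF2, at -0.52 (adjusted p = 0.00444) and a median of -0.40. Without 1 library these counts ran from 1 to 3 for elongation and from 1 to 5 for initiation, with every 1 of the 6 libraries moving them by more than 1.5 times, and total counts alone gave 3 and 5. TEF1 passed without each of them, while TEF4, YEF3, EFT1 and EFT2 each lost their call without 5 of the 6. Of 18 cytosolic aminoacyl-tRNA synthetase genes 1 fell. Mitochondrial ribosomal protein genes had 5 rises and 0 falls among 53, with 1 to 5 rises without 1 library and 18 with only the compared groups.

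**Figure D3:**
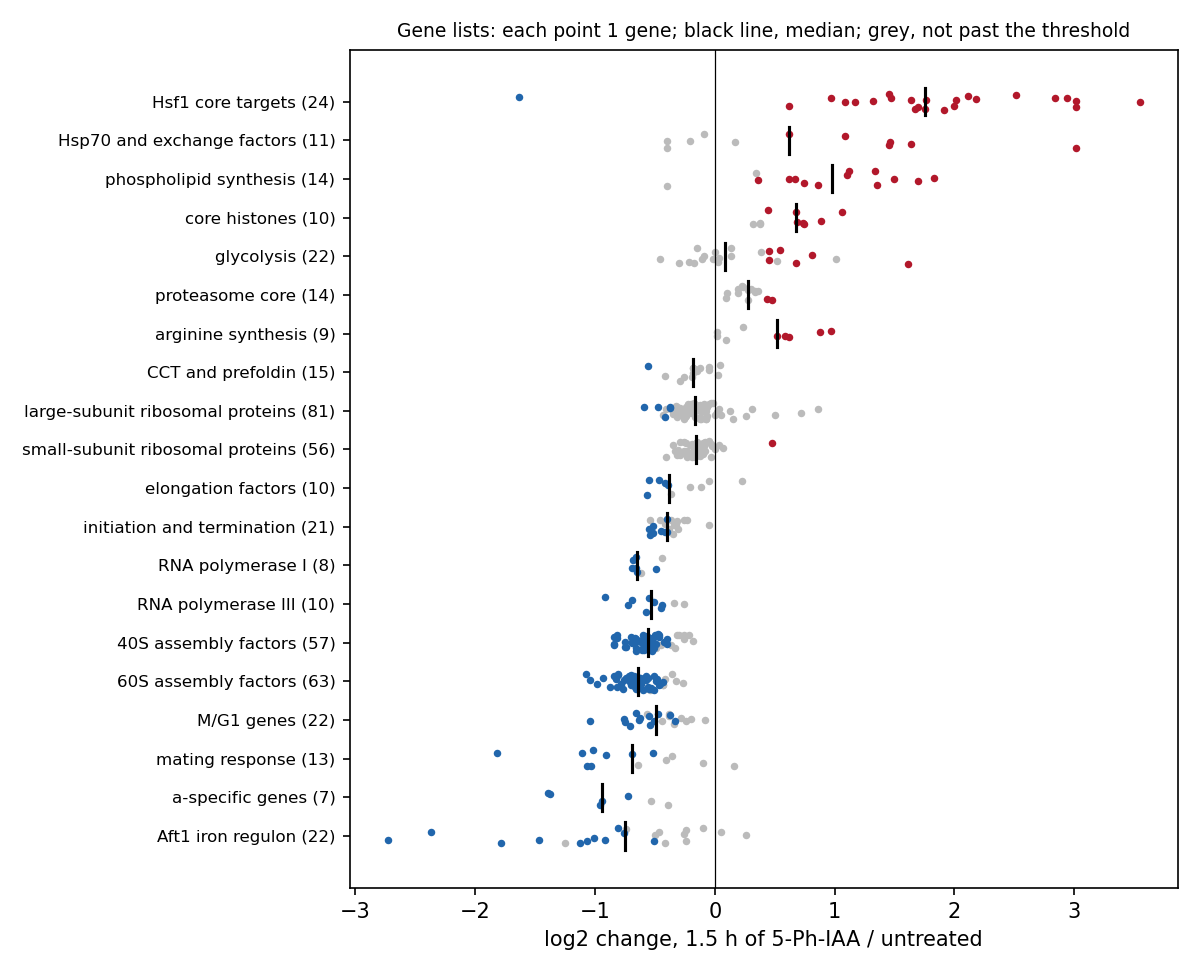
Log2 change at 1.5 h against untreated cells (horizontal) of each tested gene in 20 lists (rows, with the number of genes), red for genes that rose, blue for genes that fell, grey for genes not past the threshold, and a black line at the median. The Hsf1 core row lies to the right, with HSP26 alone far to the left, and the Hsp70 row lies mostly to the right. The CCT and prefoldin row has a median of -0.18. The assembly factor rows form a narrow band below 0, and the iron row spreads to -2.73.

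Iron uptake genes were among the largest falls. FET3 (YMR058W, chromosome XIII, 388822 to 390732), the ferroxidase of high-affinity iron uptake, had 278, 302 and 380.4 CPM untreated and 31.6, 31 and 82.1 CPM at 1.5 h (-2.73 log2, SE 0.41, adjusted p = 0.000326). FTR1 (YER145C), its permease partner, had 370.5, 403 and 441 CPM and 130.5, 126 and 183 CPM (-1.46 log2, adjusted p = 0.000327). SIT1 (YEL065W), whose promoter is printed above, had 135, 114 and 133 CPM and 16.3, 13.9 and 43.8 CPM (-2.37 log2, adjusted p = 0.00105). In all 3 genes library 3 at 1.5 h was the highest treated one, yet below every untreated library. FIT2, a cell wall mannoprotein that holds siderophores, had 22.5, 18.9 and 19.5 CPM and 7.01, 5.29 and 5.33 CPM (-1.78 log2, adjusted p = 0.00195). Of the 22 genes of the Aft1 list 11 fell and 0 rose, against 9.74% and 7.86% of all genes, with a median of -0.75. The 11 falls were 7 without untreated library 1. HMX1 (-0.50, adjusted p = 0.0531), a heme oxygenase, and FRE2 (-0.74, adjusted p = 0.0746), a ferric reductase, did not pass, but passed in DESeq2 (adjusted p = 0.0415 and 0.0402) and with only the compared groups (0.0104 and 0.048).

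Most genes for phospholipid synthesis under Ino2 and Ino4 rose. Of 14 genes 12 rose and 0 fell, INO1 and ACC1 not passing, where 7.86% of all genes rose, and the median was 0.98. CHO2 (YGR157W), which methylates phosphatidylethanolamine, had 193, 149.6 and 123 CPM untreated and 544, 529.5 and 579 CPM at 1.5 h (1.83 log2, SE 0.17, adjusted p = 2.11e-06). ITR1 (YDR497C), the inositol transporter, had 467, 457 and 284 CPM and 1341, 1373 and 1212 CPM (1.70 log2, adjusted p = 2.8e-06), and CHO1, which makes phosphatidylserine, had 196, 199.9 and 117 CPM and 483, 455 and 508 CPM (1.50 log2, adjusted p = 4.53e-05). Untreated library 3 was the lowest for all 3, and the groups lay apart. INO1, which makes inositol phosphate from glucose phosphate, had 30.3, 38.3 and 23.3 CPM and 26.6, 27.8 and 15.3 CPM, with overlap and a difference of -0.40 (adjusted p = 0.267). ACC1, acetyl-CoA carboxylase, had a difference of 0.34 (adjusted p = 0.0621) and passed under 4 alternatives, with 0.0214 in DESeq2. Of 17 genes of the unfolded protein response of the endoplasmic reticulum 3 rose and 0 fell. KAR2, the Hsp70 of that compartment, had 436, 395 and 537 CPM and 1281, 1343 and 1504 CPM (1.59 log2, adjusted p = 2.3e-06), ERO1, its thiol oxidase, had a change of 0.94 (adjusted p = 0.000333), and DER1, which serves the removal of misfolded proteins, one of 0.54. The call of DER1 ended without untreated library 3 or library 2 or 3 at 1.5 h (adjusted p from 0.0621 to 0.088). Of 24 ergosterol genes 6 fell and 0 rose, where 9.74% of all genes fell. They were led by ERG3, a sterol desaturase, with 770.1, 919 and 1068 CPM and 408, 367 and 473 CPM (-1.14 log2, adjusted p = 4.49e-05).

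Amino acid synthesis genes moved in part. Over 6 pathways 14 of 65 genes rose and 4 fell, against 7.86% and 9.74% of all genes, with a median of 0.05. Arginine synthesis had 5 rises among 9 genes and histidine synthesis 3 among 7, with 0 falls in either. HIS5 had 99.5, 109 and 89.7 CPM untreated and 216, 193 and 203 CPM at 1.5 h (1.03 log2, SE 0.18, adjusted p = 0.00134). ARG4, which encodes argininosuccinate lyase, had 502, 544 and 389.5 CPM and 941, 942 and 937 CPM (0.97 log2, adjusted p = 9.7e-05). In both the groups lay apart. Without untreated library 3 the 5 arginine calls were 3. GCN4, which encodes the activator of these genes and is controlled in translation, had 1094, 1005 and 1285 CPM and 831, 1045 and 1002 CPM, a difference of -0.23 that did not pass (adjusted p = 0.332). Of 22 methionine and sulfate genes 5 rose and 0 fell, which beside SAM2 included MET17, homocysteine synthase (1.38, adjusted p = 9.7e-05), and MET6, methionine synthase (1.21, adjusted p = 0.000648). MET17 overlaps an annotated gene, YLR302C, and could hold reads of it. Of 20 permease genes 6 rose and 2 fell, with BAP3, a branched-chain amino acid permease, at 0.92 (adjusted p = 4.36e-05), and the 6 were 1 to 4 without 1 of the 6 libraries. The 5 methionine calls were 3 without untreated library 1 or 3.

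Mating genes fell. Of 20 genes of the pheromone response and of MATa identity 13 fell and 0 rose, against 9.74% and 7.86% of all genes, and the median was -0.82. AGA1 (YNR044W), the anchor of the agglutinin, had 49.5, 51.6 and 60.6 CPM untreated and 16.1, 15.7 and 14.1 CPM at 1.5 h (-1.82 log2, SE 0.15, adjusted p = 9.72e-07). BAR1 (YIL015W), the protease that degrades alpha factor, had 268, 268 and 254 CPM and 106, 102 and 96.3 CPM (-1.38 log2, adjusted p = 4.43e-05). MFA1, a gene for the a-factor precursor, had 369, 536 and 478 CPM and 207, 190.2 and 129.8 CPM (-1.39 log2, adjusted p = 0.00065), and STE2, the alpha factor receptor, 841, 914 and 840.5 CPM and 449, 426 and 475 CPM (-0.94, adjusted p = 0.000309). None of these 4 had overlapping groups. STE12, the transcription factor of the response, changed by -0.91 log2 (adjusted p = 0.000153). The 4 MATalpha genes summed to 25 to 29.4 CPM at 1.5 h. Of the 3 that were tested 1, SAG1, fell (-0.61, adjusted p = 0.0296), a call that ended without 4 of the 6 libraries (adjusted p up to 0.126).

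Cell cycle genes of several phases were among the falls, and histone genes were among the rises. Of 22 genes expressed at the end of mitosis and in early G1, 13 fell and 0 rose, beside 9.74% and 7.86% of all genes, with a median of -0.49. TEC1, a partner of Ste12, had 87.4, 92.3 and 84.5 CPM and 39.6, 52 and 37.1 CPM (-1.04 log2, adjusted p = 3.49e-05), and CLN3, the G1 cyclin that starts the cycle, had 117, 116 and 134 CPM and 75.5, 85 and 77 CPM (-0.63, adjusted p = 0.000712). Both lay lower in every treated library. Beside the same 9.74% of all genes, 5 of 21 G1/S genes (median -0.18) and 6 of 14 G2/M genes (median -0.31) fell, with RNR1, the large subunit of ribonucleotide reductase, at -0.64 (adjusted p = 0.00523) and CDC5, the polo kinase, at -0.61 (adjusted p = 0.0017). With 1 library left out the first of these counts was 2 or 3, and the second was 3 without untreated library 1 and 2 without library 1 at 1.5 h. Of 10 histone genes 7 rose and 0 fell, beside 7.86% and 9.74% of all genes, with a median of 0.68. HTA2, a gene for histone H2A, had 446, 488 and 461 CPM and 867, 829 and 883 CPM (0.89 log2, SE 0.13, adjusted p = 0.000308). The 7 were 4 without untreated library 1, untreated library 3 or library 2 at 1.5 h. Most histone mRNA of yeast is made in S phase, and the share of cells in each phase was not measured in these files.

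General stress genes under Msn2 and Msn4 did not move as a group. Of 26 genes 4 rose and 6 fell, with a median of -0.08, beside 7.86% and 9.74% of all genes. HXK1 was among the rises and DDR2, a small stress protein, had 21.5, 29.5 and 11.3 CPM untreated and 9.54, 7.86 and 6.16 CPM at 1.5 h (-1.40 log2, adjusted p = 0.0122). The 6 falls were 3 or fewer without any library but untreated library 3, and 0 without library 3 at 1.5 h, and DDR2 did not pass without untreated library 2 (adjusted p = 0.0643) or without library 3 at 1.5 h (0.054). Of 9 genes of the weak acid and membrane stress list 5 rose, with TPO2, a polyamine exporter (1.22, adjusted p = 0.000353), and HSP30, a plasma membrane protein (1.47, adjusted p = 0.00368), and 2 fell, among them YGP1, a wall glycoprotein (-0.76, adjusted p = 0.000481). Trehalose and glycogen genes had 4 rises among 16 and autophagy genes 6 among 17, with 0 falls in either, and these were 2 each without untreated library 1 or library 2 at 1.5 h. Of 10 genes of the pleiotropic drug response 0 passed in edgeR, 0 in DESeq2 and 0 at an unadjusted p under 0.05.

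In carbon metabolism 6 of 22 glycolysis and fermentation genes, 4 of 17 hexose transport genes, 5 of 36 genes of the respiratory chain and 4 of 13 TCA cycle genes rose, beside 7.86% of all genes, and 1 hexose transport gene fell. ENO1, an enolase gene, had 257, 359 and 274 CPM untreated and 919, 1001 and 808 CPM at 1.5 h (1.62 log2, SE 0.15, adjusted p = 2.11e-06), clear of overlap. CIT1, mitochondrial citrate synthase, had 98.2, 107 and 65.8 CPM and 170, 198 and 151 CPM (0.93 log2, adjusted p = 0.00243). The 6 glycolysis calls were 3 without untreated library 1 or library 1 or 2 at 1.5 h. The 5 calls of the respiratory chain were 1 or 2 without untreated library 1 or 3 or library 1 or 2 at 1.5 h, and 4 of the 5 were genes of complex II, the succinate dehydrogenase.

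The remaining lists held 1 to 3 calls each or none, and 7.86% of all genes rose and 9.74% fell. Of 12 branched-chain amino acid genes 1 rose and 1 fell, the fall being that of BAT2, a cytosolic aminotransferase (-1.22, adjusted p = 0.000117). Aromatic amino acid genes had 1 rise and 2 falls of 15, lysine genes 2 rises of 9, and genes of serine, glycine and folate metabolism 2 rises and 1 fall of 13. Genes for Gcn4, the Gcn2 pathway and eIF2B had 1 fall of 10. NAD synthesis genes had 2 rises of 7, other vitamin genes 2 rises and 1 fall of 11, phosphate genes 1 and 1 of 16, and oxidative stress genes 1 and 1 of 25. Cell wall integrity genes had 1 rise and 2 falls of 18, proteasome assembly genes 1 and 1 of 12, and sporulation genes 2 falls of 12. Of 8 mitochondrially encoded genes 0 passed in edgeR or DESeq2 and 0 at an unadjusted p under 0.05, with a median of -1.44.

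EGO4, PRM7, BSC1 and WSC4 were the 4 of the 12 largest falls that belonged to no list. EGO4 had 149, 140.5 and 44.6 CPM untreated, with untreated library 3 far below the others, and 27.5, 34 and 28.3 CPM at 1.5 h (-1.90 log2, adjusted p = 0.0122). PRM7 (YDL039C) had 64.8, 62.4 and 122 CPM and 25.1, 20 and 29 CPM (-1.75 log2, adjusted p = 0.00022), and BSC1 (YDL037C), which lies near it on chromosome IV, 20.1, 21.8 and 31.8 CPM and 10.3, 7.26 and 10.1 CPM (-1.41, adjusted p = 0.00132). In both genes untreated library 3 was the highest. WSC4, a gene of a family of cell surface stress sensors, had 10.2, 12.5 and 21.9 CPM and 3.26, 8.62 and 5.2 CPM (-1.40 log2, adjusted p = 0.00842), and did not pass without untreated library 3 (-0.99, adjusted p = 0.071) or without library 1 at 1.5 h (adjusted p = 0.0527). EGO4 did not pass without untreated library 1 (adjusted p = 0.0515) or without library 1 at 1.5 h (0.0537).

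Against 0.5 h of 5-Ph-IAA few genes differed at 1.5 h. The direct test compares no untreated library, although these libraries entered the filter, the scaling and the shared estimate of spread. It called 69 of 6069 genes (1.14%), 56 higher (0.923%) and 13 lower (0.214%). Leaving out 1 library gave 23 to 42 calls, each of the 6 libraries moving the count by more than 1.5 times, while DESeq2 gave 170 and the fit of only the compared groups 222. HSP82 had 1906, 1995 and 2144 CPM at 0.5 h beside 1482, 1736 and 1503 CPM at 1.5 h, a difference of -0.36 log2 that did not pass (adjusted p = 0.307). Of the 24 Hsf1 core genes 3 were lower at 1.5 h than at 0.5 h and 0 higher, with a median of -0.41. These were BTN2 (934, 1048 and 1195 CPM at 0.5 h, -0.98 log2, adjusted p = 0.0368), SSA1 (4623, 4048 and 4430 CPM, -0.68, adjusted p = 0.00649) and CPR6 (-0.65, adjusted p = 0.0367). RPN4 had 327, 321 and 318 CPM at 0.5 h and was lower at 1.5 h (-0.59, adjusted p = 0.0413). SSA1 passed without each library except library 1 at 0.5 h (adjusted p = 0.0501) and library 1 at 1.5 h (0.0564), while BTN2, CPR6 and RPN4 did not pass with any 1 of the 6 left out. Of the 33 proteasome subunit genes 0 were called between the times in edgeR or DESeq2, and 11 had an unadjusted p under 0.05. Their median change between the times was -0.26, and against untreated cells it was 0.53 at 0.5 h and 0.27 at 1.5 h.

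Phospholipid genes were the list with the most rises between 0.5 h and 1.5 h, 5 of 14, beside 0.923% of all genes. ITR1 had 714, 725 and 605 CPM at 0.5 h (0.94 log2, adjusted p = 0.00645). Among all genes the largest rises were those of TDA6 (7.68, 14.2 and 10.2 CPM at 0.5 h and 37.5, 52.3 and 62.5 CPM at 1.5 h, 2.24 log2, adjusted p = 0.000373), HSP30 (1.92), STP4, a zinc-finger protein gene (1.76), and CIP1, an inhibitor of Cdk1 with G1 cyclins (1.62). The libraries of TDA6 at 0.5 h lay below the untreated ones and those at 1.5 h above them. The largest falls were those of PRM7 (-1.15), BTN2, PYC1, pyruvate carboxylase (-0.79), and YGR079W (-0.70). PRM7 and BTN2 did not pass with any 1 of the 6 libraries left out, PYC1 without any but library 2 at 0.5 h, and YGR079W without 4 of them. Of the 120 assembly factor genes 2 were lower at 1.5 h than at 0.5 h, 0 were higher, and the median was -0.28.

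Between 1.5 h and 3 h of 5-Ph-IAA the direct test called 961 genes (15.8%), 540 higher at 3 h (8.9%) and 421 lower (6.94%). The libraries at 3 h were uneven, with 2530145 to 17044914 counts, and the call count was 523 without library 2 at 3 h, the shallowest, and 532, 626 and 602 without library 1, 2 or 3 at 1.5 h. Of the 24 Hsf1 core genes 13 were lower at 3 h and 0 higher, with a median of -0.48. SSA1 had 1700, 1879 and 1912 CPM at 3 h, below all 3 libraries at 1.5 h (-0.58, adjusted p = 0.00334). ALB1 had 98.3, 93 and 94.3 CPM at 3 h (-0.76, adjusted p = 0.000512), and 87 of the 120 assembly factor genes were lower at 3 h than at 1.5 h, with 0 higher. ZPR1 was lower at 3 h (104, 91 and 177 CPM, -0.94 log2, adjusted p = 0.0436). Other falls were those of BIO2, biotin synthase (-1.06), IZH4 (-1.0) and DHR2, a 40S assembly helicase (-0.99), and the calls of ZPR1 and IZH4 ended without library 2 at 3 h (adjusted p = 0.172 and 0.0707) and without others. For ZPR1 these were every library but library 3 at 3 h, and for IZH4 library 3 at 1.5 h. ZPR1 also did not pass in DESeq2 (adjusted p = 0.053), with total counts alone (0.0544) or with robust estimation (0.0674), nor IZH4 with only the compared groups (0.0523). The 4 largest rises among genes with a mean of at least 10 CPM and no overlap between groups were those of RRT15, whose sequence is near-identical to ribosomal DNA genes, the mitochondrial BI4 and the small nucleolar RNA genes snR30 and snR63. RRT15 had 0.613, 497 and 18.5 CPM at 3 h, BI4 had 9.19, 63.5 and 1.04 CPM, snR30 had 268, 2481 and 58.6 CPM and snR63 had 77.3, 854 and 22.7 CPM. Library 2 was far the highest in each. Without it their log2 differences went from 8.50 to 4.48, from 5.35 to 3.10, from 4.48 to 1.97 and from 3.97 to 1.32, and snR63 did not pass with only the compared groups (adjusted p = 0.0563).

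**Figure D4:**
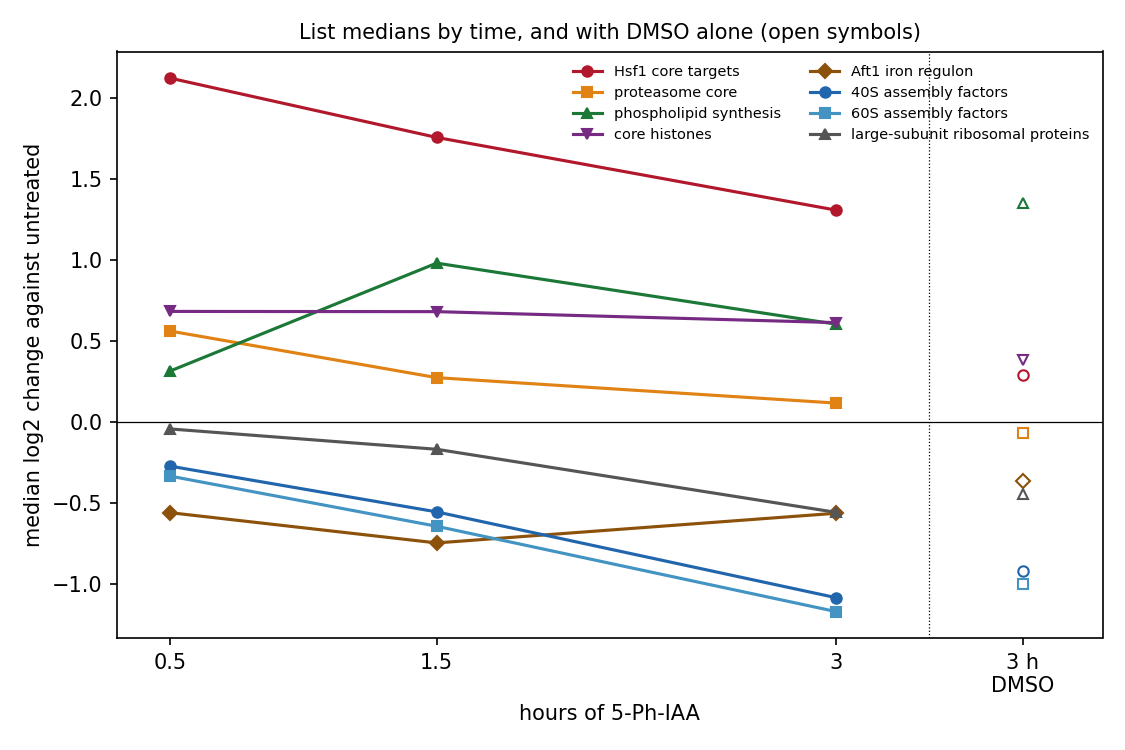
Median log2 change against untreated cells (vertical) of 8 gene lists at 0.5, 1.5 and 3 h of 5-Ph-IAA (filled symbols joined by lines) and at 3 h of DMSO (open symbols at right); all use the same 3 untreated libraries, and the 3 h value adds the change from 1.5 h to 3 h, gene by gene. At 1.5 h the Hsf1 core median is 1.76 and in DMSO 0.29, whereas both assembly factor lists are lower in DMSO, at -0.92 and -1.0, than at 1.5 h, at -0.56 and -0.64.

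Cells in DMSO for 3 h differed from untreated cells in more genes than cells at 1.5 h did, 2193 (36.1%), with 1069 higher (17.6%) and 1124 lower (18.5%). Both comparisons use the same untreated libraries, so each one's own values are given side by side. Hsf1 core genes had 23 rises and 1 fall at 1.5 h, and 9 rises and 2 falls in DMSO. Assembly factor genes had 100 falls of 120 at 1.5 h and 117 in DMSO, and cytosolic ribosomal protein genes 5 falls of 137 at 1.5 h and 90 in DMSO. Phospholipid genes had 12 rises of 14 at 1.5 h and 13 in DMSO, iron genes 11 falls of 22 and 8, and mating genes 13 falls of 20 and 15. For these lists, calls in the same direction were thus also made without 5-Ph-IAA, at a later time. Falls at 1.5 h and in DMSO numbered 5 and 7 of 10 elongation factor genes. For initiation and termination factors they were 8 and 19 of 21, and for ergosterol genes 6 and 12 of 24. Polymerase I genes had 6 and 8 of 8, and polymerase III genes 8 and 10 of 10. Rises were 5 and 33 of 53 mitochondrial ribosomal protein genes. They were 4 and 14 of 16 for trehalose and glycogen, 6 and 11 of 17 for autophagy, and 7 and 4 of 10 for histones.

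A direct test of 1.5 h of 5-Ph-IAA with 3 h of DMSO, in which times differ, called 741 genes (12.2%), 328 higher (5.4%) and 413 lower (6.81%). The 741 calls were 288, 433 and 378 without library 1, 2 or 3 at 1.5 h, 341 without DMSO library 2 and 1120 without DMSO library 3. Chaperones again led. Of the 24 Hsf1 core genes 21 were higher than in DMSO and 0 lower, with a median of 1.50. SSA1 had 622, 592 and 544 CPM in DMSO (2.22 log2, SE 0.12, adjusted p = 1.08e-08), and HSP82 had 338, 486 and 411 CPM (1.93, adjusted p = 6.44e-07). Each library at 1.5 h lay above each DMSO library in both genes. YNR068C had 11.2, 15.6 and 11.2 CPM in DMSO (2.18, adjusted p = 7.13e-07), and STI1 had 263, 219 and 441 CPM (2.05, adjusted p = 2.08e-05). HSP104 had 723, 843 and 822 CPM in DMSO, and its difference of 0.54 did not pass (adjusted p = 0.0519), although it passed under 6 alternatives, DESeq2 among them (adjusted p = 0.0143).

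Among the other groups the direct test with DMSO went both ways. Of the 65 amino acid synthesis genes 11 were higher at 1.5 h than in DMSO and 2 lower, with a median of 0.27, and of the 33 proteasome genes 4 were higher and 0 lower, with a median of 0.31, where 5.4% of all genes were higher and 6.81% lower. Of the 120 assembly factor genes 39 were higher at 1.5 h than in DMSO and 0 lower, and of the 137 ribosomal protein genes 21 were higher and 0 lower. Of 10 elongation factor genes 1 was higher and 0 lower, with a median of 0.05. Trehalose and glycogen genes had 11 of 16 lower and 0 higher, and weak acid genes 6 of 9 lower and 0 higher. Of 17 autophagy genes 5 were lower and 0 higher, and of 20 permease genes 7 were lower and 1 higher. Iron and mating genes had 0 calls in edgeR, with 7 of 22 and 5 of 20 at an unadjusted p under 0.05, and DESeq2 called 0 iron genes and 2 mating genes, 1 each way. FET3 had 92.3, 77.1 and 88 CPM in DMSO (-0.83, adjusted p = 0.167), and without library 3 at 1.5 h its difference was -1.46 (adjusted p = 0.0327). Phospholipid genes had 4 lower and 0 higher, among them INO1, with 92.1, 121 and 100.3 CPM in DMSO (-2.17, adjusted p = 2.08e-05). SAM2 had 521, 411 and 782 CPM in DMSO, a difference of -0.06 that did not pass (adjusted p = 0.923) and was 0.0755 without library 3 at 1.5 h and 0.237 without DMSO library 3. Among genes with a mean of at least 10 CPM and no overlap, the largest falls below DMSO were those of ADH4, an alcohol dehydrogenase (-2.88, adjusted p = 6.44e-07), ZPS1 (-2.52, adjusted p = 0.00111), RCK1, a protein kinase (-2.25), and INO1. Both ADH4 and ZPS1 belong to the Zap1 list, of which 8 of 17 were lower at 1.5 h than in DMSO and 2 higher. In this list 2 genes rose and 1 fell against untreated cells.

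The promoter windows held the elements in unequal shares. Windows were read for 5700 tested genes, of which 476 had risen and 576 had fallen, and exact matches on either strand were counted as a description. PAC stood in 47.9% of the windows of falling genes, 20% of all and 14.7% of those of rising genes. RRPE stood in 36.1%, 9.23% and 2.52% of them. Both together, as in ALB1, stood in 260 windows of tested genes, and 146 of these genes fell and 2 rose. Of the 128 windows of assembly factor and polymerase I genes 117 held PAC and 102 held RRPE.

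The heat shock core TTCNNGAA stood in 16% of the windows of rising genes, 13% of all and 12.8% of those of falling genes. In the Hsf1 core list it was found in 15 of 24 windows (62.5%), with 2 matches in HSP82, 3 in HSC82 and none in HSP104, SIS1 or CUR1. It stood in 6 of the 12 largest rises and 0 of the 12 largest falls. PACE was held by 27 of 33 proteasome windows and 1.23% of all, TGACTC by 36 of 65 windows of amino acid synthesis genes and 8.21% of all, and TGCACCC by 11 of 22 iron windows and 1.28% of all. The stress element AGGGG of Msn2 and Msn4 stood in 29.8% of the windows of rising genes, 21.9% of all and 14.8% of those of falling genes.

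**Figure D5:**
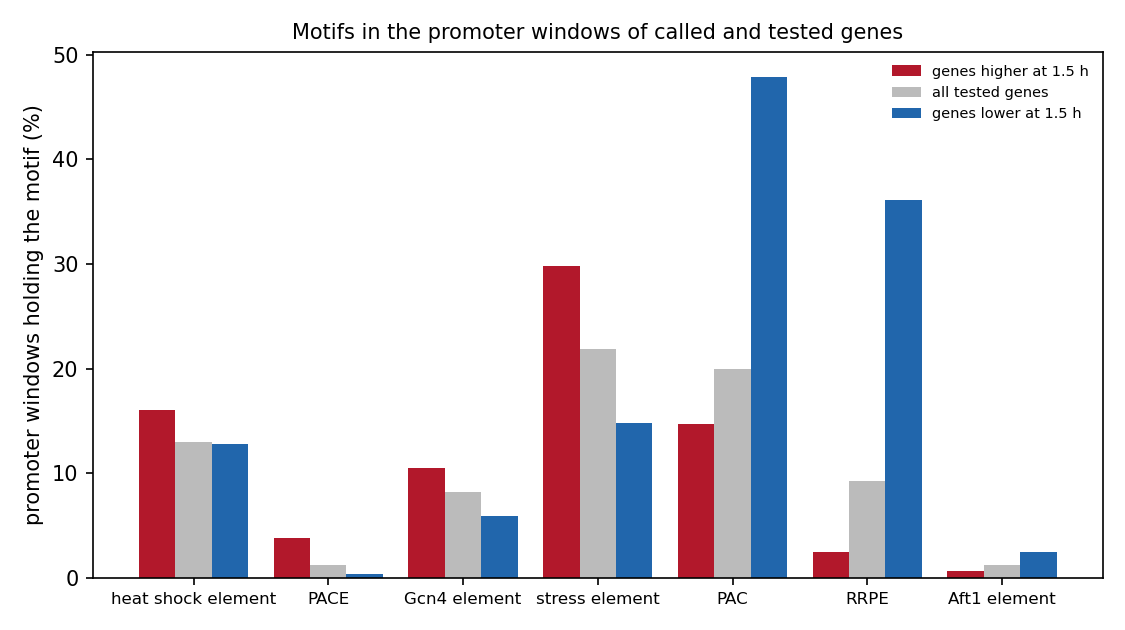
Share of promoter windows, in percent, that hold an exact match of each of 7 elements on either strand, for genes that rose (red, 476 windows), all tested genes (grey, 5700) and genes that fell (blue, 576) at 1.5 h against untreated cells. PAC and RRPE are the elements with the widest gaps, at 47.9% and 36.1% of falling genes against 14.7% and 2.52% of rising genes.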

How the data were processed

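RNA was sequenced from 15 libraries of strain W303 with the genotype ZPR1-AID, and the 6 libraries of the main comparison held 6465430 to 9233290 counts each, which sets the precision of each value together with the spread of 3 libraries a group. The values are raw counts per gene as deposited by the authors. Per the submitters' processing notes, FastQC 0.11.5, STAR 2.7.0, DESeq2 1.34.0 and build R64 were used How reads were counted, with or without strand, how those matching several places were treated, and which annotation was used is not given in the sources used here. Groups come from the treatment and time in the labels.

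From the counts, genes were kept by filterByExpr, libraries scaled by TMM, and 1 mean per group fitted over all 15 libraries, which share 1 estimate of spread, with two-sided quasi-likelihood tests in edgeR 4.0.16 (R 4.3.3, limma 3.58.1). Every adjusted p is Benjamini-Hochberg over all 6069 tested genes, with a threshold of 0.05, and the biological coefficient of variation was 17%. CPM uses TMM library sizes. Other settings were DESeq2 1.42.0, other scalings and filters, robust estimation, a replicate block, only the compared groups, a fold minimum and leaving out each library. The main edgeR fit was tested on simulated data for 1.5 h against untreated cells, while the other settings, DESeq2 and the other comparisons were not. Tables and figures used Python 3.11.15, pandas 2.3.3 and matplotlib 3.10.9.

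Gene rows were matched to the R64 annotation, 6047 by locus tag and 42 by symbol, leaving 1038 unmatched, and 382 genes with a near-identical copy and 286 that overlap another were marked. The genes named are ZPR1, TEF1 and TEF2, the 12 largest rises and falls of genes with a mean of at least 10 CPM and no overlap between groups, from each list at most 4 members by adjusted p and at most 2 others, either not passed or moved against the list, and the 4 largest rises and falls of each other comparison; others, such as HSF1, MBF1, GCN4, the proteasome genes, EFT2, SAG1 and genes carried into the other comparisons, were chosen after their values were seen. The 62 lists hold 1133 genes, of which 1126 were tested and 28 stand in more than 1 list. The comparison and the lists were chosen with earlier results of these data known. Promoter windows were read from the R64 genome for 5991 genes, 5700 of them tested. The values of 1 gene are not reported here.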

Additional observations from a re-analysis of the deposited data

How the results depend on the processing

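The alternatives are the other settings named above, and causes of differences between them were not tested. The 1068 calls at 1.5 h against untreated cells were 1000 to 1272 under DESeq2, other scalings and filters and robust estimation, 1594 with only the compared groups (1052 shared with the 1068), 577 to 851 without 1 library, and 140 with a log2 change of at least 1. The 477 higher genes were 794 with only the compared groups, 262 to 407 without 1 library and 87 at that minimum, and the 591 lower ones 314 to 444 and 53. For 1.5 h against 0.5 h the 69 calls became 170 in DESeq2, 115 with total counts alone, 222 with only the compared groups, 23 to 42 without 1 library and 18 at the minimum. For 3 h against 1.5 h the 961 became 631 with only the compared groups, 523 to 1287 without 1 library and 177. For 1.5 h against DMSO the 741 became 288 to 1120 without 1 library and 123, and for DMSO against untreated the 2193 became 396 at the minimum. With total counts alone the median of all genes moved from -0.02 to 0.05. Signs changed for genes that passed neither way: TEF2 (0.0299 with total counts alone, -0.122 to 0.0608 without 1 library), MGE1 (0.0415 with total counts alone, -0.165 to 0.0893 without 1 library), HSF1 (-0.146 to 0.0275 without 1 library), and SAM2 against DMSO (-0.247 to 0.237 without 1 library). Of 275 genes followed at 1.5 h against untreated cells, 201 passed, 123 of them under each of 14 alternatives, and 52 of the 74 that did not pass did so under at least 1. With a replicate block the main comparison gave 1114 calls, SSB2 (adjusted p = 0.0462) and HMX1 (0.0402) then passed, FET3 passed against DMSO (-0.99, 0.0273), and RPN4 did not pass between 0.5 h and 1.5 h (0.0547). Untreated and 1.5 h libraries with the same number deviated together with correlations of -0.176, 0.0551 and 0.113 over all tested genes, so the numbers are not taken as pairs. The other groups and single genes were not checked in this way. FTR1 was highest in library 3 of every group, and FET3 in library 3 of every group but DMSO.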

Other observations

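Among the 1068 genes called at 1.5 h, 695 stood in no list, and those named here were chosen after their values were seen. Next to the phospholipid list, both genes for the last step of the Kennedy pathway were higher. CPT1, choline phosphotransferase, had 86.6, 93.1 and 69.7 CPM in untreated cells and 222, 209.6 and 194 CPM at 1.5 h (1.33 log2, adjusted p = 2.39e-06 in edgeR), and EPT1, ethanolamine phosphotransferase, had 40.1, 42.4 and 31.8 CPM and 77.4, 83.2 and 68.5 CPM (1.0, adjusted p = 0.000232). GPC1, which acylates glycerophosphocholine, changed by 1.18 (adjusted p = 0.000235), EHT1, an acyltransferase that makes ethyl esters, by 1.29 (adjusted p = 1.13e-05) and YPC1, a ceramidase, by 1.36 (adjusted p = 0.00034). Of these 5 genes, GPC1 was lower at 1.5 h than in DMSO (-0.91, adjusted p = 0.00189), and the others did not pass that test. ROQ1, whose product turns the ligase Ubr1 toward misfolded proteins, had 15.8, 22.8 and 11.4 CPM and 49.3, 54.4 and 48.7 CPM (1.61, adjusted p = 0.000794), and it was also higher than in DMSO (0.94, adjusted p = 0.026). OPI10, the yeast relative of the human Hsp70 import carrier Hikeshi, had 18.8, 25 and 18.4 CPM and 51.8, 56.4 and 54.9 CPM (1.39, adjusted p = 0.000194), and 26.2, 22.4 and 38.9 CPM in DMSO (0.90, adjusted p = 0.00605).

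SER3, the serine synthesis gene, and SRG1, the noncoding RNA transcribed across its promoter and known to repress it, moved in opposite directions. SRG1 had 22.6, 22.6 and 27.4 CPM untreated and 10, 11 and 12.3 CPM at 1.5 h (-1.12 log2, adjusted p = 0.00101), and SER3 had 125, 131 and 115 CPM and 224, 241 and 268 CPM (0.98, adjusted p = 0.000183). The annotated spans of the pair overlap, so reads could be assigned to either. Among other falls, NRD1, which ends transcription of noncoding RNA, had 86.1, 100 and 149 CPM and 60.3, 52.6 and 54.9 CPM (-1.0, adjusted p = 0.000952). NSR1, nucleolin, had 1223, 1538 and 1485 CPM and 914, 615 and 842 CPM (-0.84, adjusted p = 0.00358), and AAH1, adenine deaminase, had 692, 747 and 891 CPM and 414, 349 and 421 CPM (-0.98, adjusted p = 0.000735). VMR1, a vacuolar transporter of the ABC family, had 55, 33.7 and 56.9 CPM and 18.6, 15.9 and 22.4 CPM (-1.35, adjusted p = 0.00141). All of these groups lay apart. NRD1 and AAH1 also fell in DMSO (-1.28 and -1.05), and between 1.5 h and DMSO they did not pass (adjusted p = 0.286 and 0.795). SRG1 (-0.65, adjusted p = 0.0372) and VMR1 (-0.94, adjusted p = 0.0202) were lower at 1.5 h than in DMSO.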
